A study of Sus scrofa with 599 samples.

Results

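Transcript levels, compartment index and H3K27ac regions of 10 extracellular matrix genes were described across 4 adipose depots of female Bama pigs in 3 nutritional groups. The genes were the fibrillar collagen chains COL1A1, COL1A2, COL3A1, COL5A1 and COL5A2, the type VI collagen chains COL6A1, COL6A2 and COL6A3, the crosslinking enzyme LOX and fibronectin (FN1). They were chosen by symbol, and all 10 were found among the 21280 protein-coding genes (PCGs) of the expression table.

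Collagens are triple helices of 3 chains. Type I collagen, of COL1A1 and COL1A2 chains, gives connective tissue its tensile strength. COL3A1 forms type III collagen, which mixes with type I in pliable tissue, and type V collagen (COL5A1 and COL5A2) starts the fibrils and limits their width. Type VI collagen is assembled from COL6A1, COL6A2 and COL6A3 chains into beaded filaments that surround each fat cell. LOX oxidises lysines of collagen and elastin so that neighbouring molecules become covalently joined, and FN1 is the glycoprotein to which cells and new fibrils attach. In adipose tissue these genes are expressed chiefly by fibroblast-like stromal and progenitor cells, and an excess of their products is known as fibrosis.

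All pigs were adult females of 2 years. NC pigs ate a normal diet, and a high-fat diet was fed to WG pigs over 22 weeks. WL pigs, which were other animals than those of the WG libraries, gained weight in the same way and were then held for 12 weeks at 10% of the normal caloric intake. The depots were the greater omentum (GOM), the mesenteric fat (MAD) and the retroperitoneal fat (RAD), which are visceral, and the upper layer of backfat (ULB), which is subcutaneous. In GOM, MAD, RAD and ULB there were 9, 12, 12 and 5 NC libraries of RNA-seq, 45, 36, 39 and 38 WG libraries, and 10 WL libraries each. Hi-C had the same NC and WL numbers and 46, 37, 40 and 39 WG libraries in the same order of depots. H3K27ac was deposited as 18 tables, each from the reads of a group or a WG subgroup in 1 depot, so it has no replicates. Reads were pooled over libraries except for NC MAD and a WG subgroup of RAD, which had a single library. RNA came from whole tissue, so fewer stromal cells and less RNA per cell cannot be told apart. For Hi-C the floating, adipocyte-rich layer of the fixed tissue was kept, so the index and the transcripts were read from different fractions.

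The libraries held 3337098 to 22939420 estimated counts of PCGs each, with a median of 16791659. PCGs took less than 88% of the summed TPM (transcript abundance scaled to a fixed total per library) in 17 of 38 NC, 6 of 158 WG and 17 of 40 WL libraries. The groups with most of them were NC GOM (7 of 9), NC RAD (6 of 12), WL GOM (6 of 10) and WL MAD (6 of 10). The WG GOM library with the lowest total (replicate 35) stood apart from its group. Adipocyte markers (6 of 6 matched) summed to group medians of at least 7982 TPM, and fibroblast and progenitor markers (8 of 8) to at least 802 TPM.

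The libraries also fell into 2 sets, which bear on every diet comparison below. They were split at the widest gap of a score, with no library between -0.0876 and 0.386, a gap of 9.72% of its range. The score took 200 genes each way from 13020 genes that left out the 10 genes and all listed genes. Those taken best separated the WG libraries on the 2 sides of their first principal component, so their choice favoured a gap. Set 1 held 132 libraries (8 NC, 86 WG and 38 WL) and set 2 held 104 (30 NC, 72 WG and 2 WL). The labels name no batch, and of 45 WG numbers that occur in more than 1 depot, 42 had all their libraries in 1 set. In WG, with depot in the model, set 2 was higher than set 1 by 2.35 ± 0.13 (log2, SE) for COL1A1, 1.71 ± 0.08 for COL5A1, 1.53 ± 0.07 for COL6A1, 1.32 ± 0.07 for COL6A2, 1.00 ± 0.06 for COL6A3, 0.84 ± 0.12 for FN1 and 0.61 ± 0.06 for LOX. These 7 passed the call rule used throughout, an adjusted p below 0.05 and a change above 1.5-fold in edgeR's quasi-likelihood test, as did 37.8% of all genes tested. The sets were drawn from the same expression data, so these calls only describe them. The values for COL1A2, COL3A1 and COL5A2 were -0.39 ± 0.10, -0.27 ± 0.10 and -0.56 ± 0.07, under the 1.5-fold limit. The share of G and C in the exons was 68.4% in COL5A1, 67.1% in COL6A1, 65.0% in COL6A2, 62.4% in COL1A1 and 58.4% in COL6A3. It was 55.5% in COL3A1, 53.8% in COL1A2, 52.7% in LOX, 51.6% in FN1 and 50.3% in COL5A2. LOX and FN1, which were higher in set 2, had lower shares than COL1A2, which was not. Any relation between these shares and the sets was not tested. What the sets stand for was not tested. Since NC was mostly of set 2 and WL mostly of set 1, the diet comparisons are given over all libraries and within a set.

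The 250 bases before the annotated start of COL1A1 and COL1A2, the chains of type I collagen, are printed 5′ to 3′ on the gene's strand, since their group medians were spread the most among the collagens. Capitals mark CCAAT, its reverse complement ATTGG, and TATAAA. The sequences are RefSeq's for Sscrofa11.1, at chr12:26397181-26397430 on the minus strand and chr9:74174234-74174483 on the plus strand.
COL1A1: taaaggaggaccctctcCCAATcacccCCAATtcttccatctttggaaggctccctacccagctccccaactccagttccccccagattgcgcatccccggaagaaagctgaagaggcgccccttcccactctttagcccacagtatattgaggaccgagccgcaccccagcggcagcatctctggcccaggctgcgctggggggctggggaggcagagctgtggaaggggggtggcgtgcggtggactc
COL1A2: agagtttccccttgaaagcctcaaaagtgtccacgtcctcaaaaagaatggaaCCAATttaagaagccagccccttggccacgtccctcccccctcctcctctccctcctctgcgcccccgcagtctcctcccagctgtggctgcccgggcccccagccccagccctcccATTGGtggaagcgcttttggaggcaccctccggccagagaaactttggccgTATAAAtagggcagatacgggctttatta
COL1A1 held CCAAT 233 and 223 bases before its start. COL1A2 held it 197 bases before the start and in reverse 80 bases before, and TATAAA 29 bases before. The share of G and C in the window was 62.8% in COL1A1 and 58.8% in COL1A2. Of the 9 genes with a position, 4 held CCAAT on either strand, against 31.4% of 18719 genes with a window of the same length. TATAAA was found on either strand in 2 of 9 (9.78% of all) and GGGCGG in 2 of 9 (46.5% of all). COL6A1 has no symbol in that annotation and was placed by its product name, collagen alpha-1(VI) chain. COL6A2 has no position in the annotation used, so its promoter, compartment and H3K27ac were not analysed here.

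Each of the 10 genes was detected in all 236 libraries, and 8 had their highest median in subcutaneous ULB in each diet group. The exceptions were FN1, highest in GOM, and COL5A2, highest in RAD in WG. COL3A1 was the most abundant, from 138 TPM through a median of 2023 to 13105 TPM. COL1A2, COL5A2 and FN1 followed with medians of 371, 293 and 258 TPM, and COL5A1 was lowest with 49.5 TPM. The group medians of COL1A1 were spread the most, from 30.0 TPM in WL MAD to 769.6 TPM in NC ULB, a ratio of 25.7, against 4.04 for LOX, the narrowest.

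In NC RAD, with both library sets mixed, chains of type VI collagen were at close levels and those of type V were apart. In NC RAD, COL6A1 ran from 49.6 TPM through a median of 142 to 265 TPM, COL6A2 from 63.7 TPM through a median of 169 to 284 TPM and COL6A3 from 60.0 TPM through a median of 139 to 223 TPM. In the same libraries COL5A1 ran from 19.5 TPM through a median of 51.8 to 104 TPM and COL5A2 from 76.7 TPM through a median of 210.4 to 304 TPM, so the 2 chains of type V hardly met. LOX ran from 19.9 TPM through a median of 61.8 to 80.8 TPM in NC RAD and from 69.8 TPM through a median of 159 to 329.8 TPM in WG ULB.

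**Figure D1:**
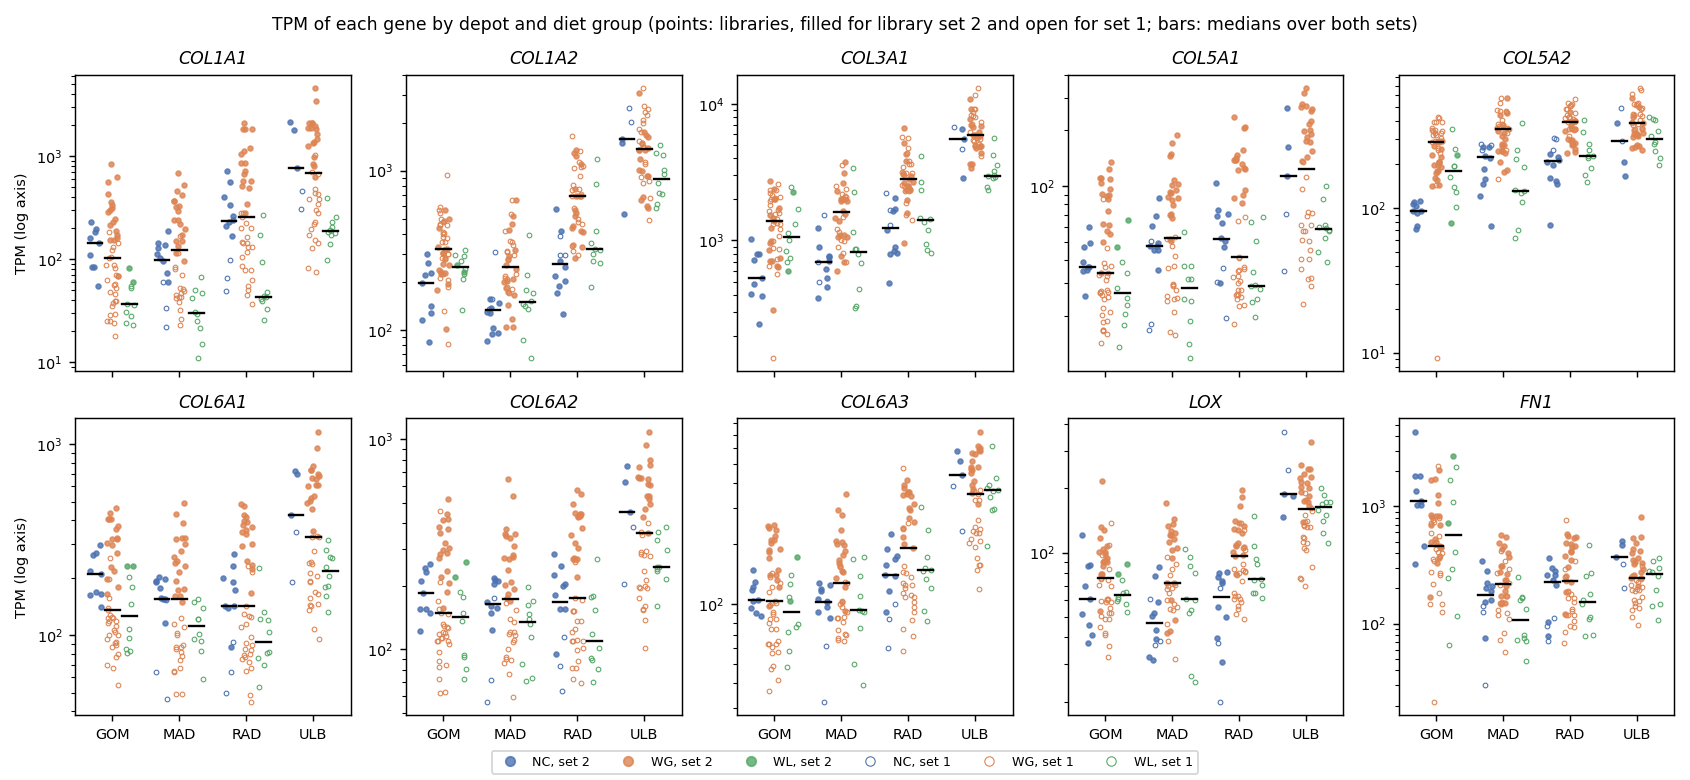
TPM of each gene (log axis) in the 236 RNA-seq libraries by depot and diet group. Each point is 1 library, filled for library set 2 and open for set 1, and bars are the group medians over both sets. FN1 stood highest in GOM and most other genes in ULB, and in WG the filled points lay mostly above the open ones for COL1A1, COL5A1, COL6A1 and COL6A2.

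All 10 genes differed among depots within NC (30.5% of all genes tested passed), WG (24.6%) and WL (24.5%). The same 10 passed within set 2 in NC (24.4% of genes), set 1 in WG (26.3%) and set 2 in WG (24.6%). COL1A1 in NC ULB was 307 TPM in replicate 2, 769.6 in replicate 5, 460.1 in replicate 7, 2132 in replicate 9 and 1801 in replicate 12. In NC GOM it ran from 54.9 TPM through a median of 144 to 228 TPM, below each of these ULB libraries. The difference of ULB minus GOM was 2.97 ± 0.48, 2.74 ± 0.32 and 2.29 ± 0.35 (log2, SE) in the NC, WG and WL groups. Within sets it was 3.48 ± 0.34 in NC set 2, 2.46 ± 0.23 in WG set 1 and 2.64 ± 0.27 in WG set 2.

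The type I and III chains were highest in ULB, then in RAD, and lowest in GOM and MAD. In WG, COL3A1 had medians of 5925 TPM in ULB, 2834 in RAD, 1607 in MAD and 1382 in GOM. COL1A2 in WG differed by 2.18 ± 0.15 between ULB and GOM and by 1.16 ± 0.14 between RAD and GOM on the log2 scale. Its difference of MAD minus GOM, -0.26 ± 0.15, did not pass (adjusted p = 0.26 in edgeR). COL5A2 was the flattest collagen chain in WG, at 0.73 ± 0.11 for ULB minus GOM. Of the type VI chains in WG, COL6A3 was higher in RAD than in GOM by 0.87 ± 0.14, while COL6A1 and COL6A2 differed there by 0.18 ± 0.19 and 0.33 ± 0.17 and did not pass. LOX was higher in ULB than in GOM by 1.76 ± 0.26 in NC and 1.14 ± 0.11 in WG.

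FN1 had its highest level in the omentum. It ran from 325 TPM through a median of 1106 to 4326 TPM in NC GOM and from 30.2 TPM through a median of 174 to 340.4 TPM in NC MAD, with ranges that met only at their ends. The difference of MAD minus GOM was -3.02 ± 0.37, -1.25 ± 0.19 and -2.92 ± 0.47 on the log2 scale in the NC, WG and WL groups, and -2.80 ± 0.36 in NC set 2. In WG the pairwise differences among MAD, RAD and ULB were 0.01 to 0.21 and did not pass. The summed level of mesothelial markers (3 of 7 listed were matched) had medians of 205 to 298 TPM in the GOM groups, with libraries from 45.2 to 796 TPM, and medians of 4.71 to 13.5 TPM elsewhere, where the median of UPK1B was under 1 TPM in 7 of 9 groups. No mesothelial marker had a median of 0. Macrophage markers (6 of 6) were also highest in GOM in each diet group, with medians of 754 to 875 TPM. The part of these cells in the FN1 difference was not tested.

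From NC to WG, fibrillar collagen transcripts rose in the visceral depots and none was called in ULB over all libraries or within set 2. Over all libraries COL1A2, COL3A1 and COL5A2 rose in GOM (3 of 10, against 12.2% of all genes), COL1A2 and COL3A1 in MAD (2 of 10, 5.38%) and COL1A2, COL3A1 and COL5A2 in RAD (3 of 10, 7.1%). FN1 fell in GOM (1 of 10, 14.5%). In ULB none of the 10 was called by edgeR (2.38% of genes in either direction), with 2 at an unadjusted p under 0.05 and 0 called by DESeq2. COL3A1 in GOM ran from 242 TPM through a median of 531 to 1019 TPM in NC and from 138 TPM through a median of 1382 to 2726 TPM in WG, so the groups overlapped. Its log2 fold change was 0.97 ± 0.28 (SE, adjusted p = 0.0062 in edgeR). In MAD it rose by 0.96 ± 0.22 and in RAD by 1.02 ± 0.20, and COL1A2 rose by 0.61 ± 0.23, 0.84 ± 0.20 and 1.15 ± 0.23 in GOM, MAD and RAD. In MAD, 3 of 5 smooth muscle markers were called lower in WG over the same libraries (median change -2.84), but their median sum did not fall. It ran from 326 TPM through a median of 889 to 12921 TPM in NC. In WG the sum ran from 388 TPM through a median of 965 to 1925 TPM. Macrophage markers rose there (5 of 5 tested, median 0.95), with sums of 164 to 464 TPM and 237 to 1064 TPM. Fibroblast and progenitor markers had median sums of 1126 TPM in NC and 1775 TPM in WG of MAD. In RAD these were 976 and 1112 TPM, and the ranges of NC and WG overlapped in both depots. In RAD, 3 of 5 smooth muscle markers rose (median 0.83). The part of these cells in the collagen changes was not tested.

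Within library set 2, which held 9 NC libraries in each visceral depot, other chains were called too. COL1A1, COL5A1 and COL5A2 rose in GOM (3 of 10, against 3.94% of genes), COL1A1, COL1A2, COL3A1, COL5A1 and LOX in MAD (5 of 10, 4.74%), and all but COL5A2 and FN1 in RAD (8 of 10, 6.67%). COL1A1 in RAD set 2 ran from 166 TPM through a median of 259 to 709 TPM in NC and from 282 TPM through a median of 852 to 2076 TPM in WG. Its log2 fold change there was 1.20 ± 0.32 (adjusted p = 0.0051 in edgeR), against 0.59 ± 0.49 over all libraries (adjusted p = 0.35). In GOM the COL1A1 value was 0.81 ± 0.30 within set 2 (adjusted p = 0.048) and -0.09 ± 0.43 over all libraries. The type VI chains rose in RAD set 2 by 0.66 ± 0.15 (COL6A1), 0.67 ± 0.15 (COL6A2) and 0.65 ± 0.13 (COL6A3). COL5A1 rose in all 3 visceral depots, by 0.70 ± 0.17, 0.59 ± 0.16 and 0.83 ± 0.17. COL3A1 in GOM set 2, at 0.74 ± 0.29, missed the threshold (adjusted p = 0.054). COL1A2 was not called there either, at 0.33 (adjusted p = 0.26 in edgeR). Within set 1, where NC had 3 libraries in MAD and 3 in RAD, COL3A1 had values of 0.89 ± 0.40 and 0.77 ± 0.33 that were not called (adjusted p = 0.3 and 0.17).

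FN1 fell in GOM, where COL1A2, COL3A1 and COL5A2 rose over all libraries and COL1A1, COL5A1 and COL5A2 rose within set 2. The log2 fold change of FN1 was -1.55 ± 0.33 over all libraries (adjusted p = 0.00021 in edgeR), with medians of 1106 TPM in NC and 462 TPM in WG and overlapping ranges. Within set 2 it was -1.15 ± 0.34 (adjusted p = 0.013), the 1 fall among the 10 (against 8.79% of genes). The adipocyte marker sum had medians of 7982 TPM in NC GOM and 15099.7 TPM in WG GOM, and the fibroblast marker sum 802 and 1341 TPM. Of the mesothelial markers, 1 of 3 tested fell in GOM over all libraries, with a median change of -0.71, and their sum ran from 112 to 359 TPM in NC and from 45.2 to 768 TPM in WG. The part of these cells in the changes was not tested. With a term for the share of TPM on PCGs, 1 of the 10 was called in GOM, FN1 at -1.57.

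In ULB the 5 NC libraries lay on both sides of the set boundary. COL3A1 was 4687, 2880.2, 6795, 5535 and 6516 TPM in replicates 2, 5, 7, 9 and 12, against 3397 to 13105 TPM in WG, and its log2 fold change was 0.19 ± 0.23. Within set 2, with 3 NC libraries, none of the 10 was called (6.71% of genes, edgeR), with 0 at an unadjusted p under 0.05. The values ran from -0.47 ± 0.27 for FN1 to 0.27 ± 0.24 for COL5A2. LOX was lower in WG than in the 2 NC libraries of set 1 (-1.40 ± 0.23, adjusted p = 0.0016), and its value within set 2 was 0.05 ± 0.15.

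A test of whether the NC to WG change differed among depots was passed by LOX (adjusted p = 0.0033), COL1A2 (0.018) and FN1 (0.002) over all libraries (edgeR, 6.57% of genes). Within set 2 it was passed by FN1 (adjusted p = 0.014) and COL6A3 (0.021), against 4.04% of genes. Without NC ULB replicate 2, 1 of the 10 genes was called over all libraries, FN1 (adjusted p = 0.002 in edgeR), and LOX and COL1A2 had 0.051 and 0.066.

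**Figure D2:**
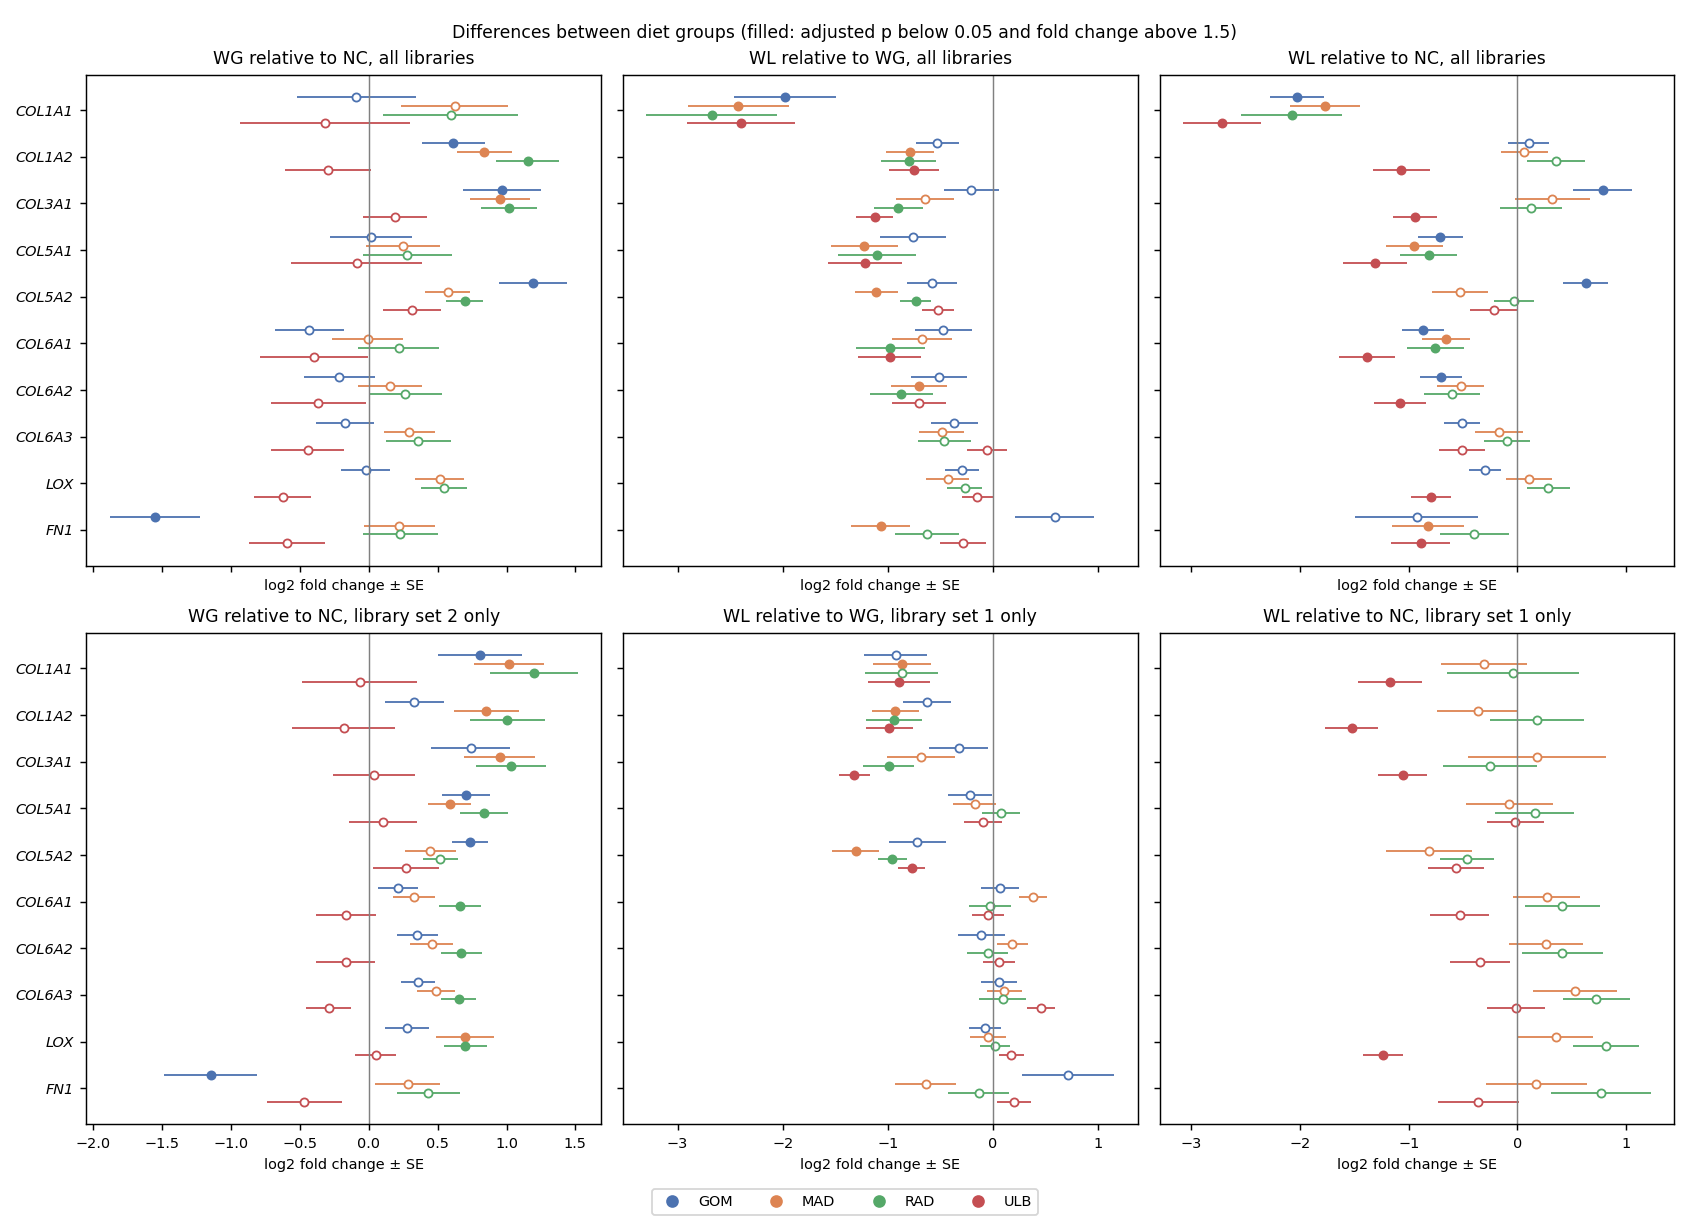
Log2 fold change with its SE for each gene between diet groups, by depot, from edgeR. The top row uses all libraries and the bottom row library set 2 (WG relative to NC) or set 1 (WL relative to WG and to NC, with no NC library of set 1 in GOM), and filled points passed an adjusted p of 0.05 and a 1.5-fold change. The low WL values of COL1A1, COL5A1, COL6A1 and COL6A2 over all libraries lay nearer 0 within set 1.

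Collagen transcripts fell from WG to WL, and which chains fell depended on whether the library sets were mixed. Over all libraries 1 gene fell in GOM (COL1A1, 2.71% of all genes), 6 in MAD (COL1A1, COL1A2, COL5A1, COL5A2, COL6A2 and FN1, 9.17%), 7 in RAD (all but COL6A3, LOX and FN1, 4.13%) and 5 in ULB (COL1A1, COL1A2, COL3A1, COL5A1 and COL6A1, 4.9%), and none rose. COL1A1 had the largest fall in each depot, at -1.98 ± 0.49, -2.42 ± 0.48, -2.68 ± 0.62 and -2.39 ± 0.51 (log2, SE) in order of GOM, MAD, RAD and ULB. COL5A1 fell in MAD, RAD and ULB (-1.22, -1.10 and -1.21), and COL6A1 in RAD and ULB (-0.98 and -0.98). WL libraries were of set 1 in 38 of 40 cases, and COL1A1, COL5A1 and COL6A1 were low in set 1 within WG as well. Without WG GOM replicate 35, 2 genes fell in GOM, COL1A1 and COL5A2.

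Markers of other cells moved over the same WG and WL libraries, and their part in the collagen changes was not tested. All 5 lymphocyte markers rose in MAD (median 2.15), where their sum ran from 45.3 to 619 TPM in WG and from 84.6 to 1135 TPM in WL, so the groups overlapped. Of 8 fibroblast and progenitor markers, 3 fell in MAD (median -0.32), 2 in GOM (-0.20), 0 in RAD (0.03) and 1 in ULB (-0.03).

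Within set 1, the genes that fell were chains of types I, III and V, and no fall was called for the type VI chains, COL5A1, LOX or FN1. COL5A2 fell in MAD (-1.31 ± 0.22, adjusted p = 0.00013), RAD (-0.96 ± 0.13, adjusted p = 9.0e-06) and ULB (-0.77 ± 0.13, adjusted p = 2.5e-05), by edgeR. COL1A2 fell in the same 3 depots (-0.93 ± 0.22, -0.94 ± 0.27 and -0.98 ± 0.22). COL3A1 fell in RAD (-0.99 ± 0.24) and ULB (-1.32 ± 0.15), and COL1A1 in MAD (-0.86 ± 0.27) and ULB (-0.89 ± 0.29). These made 3 of 10 in MAD (against 5.88% of genes), 3 in RAD (3.48%) and 4 in ULB (6.87%). In GOM none was called (4.4% of genes in either direction, edgeR), with 3 at an unadjusted p under 0.05, and COL1A1 at -0.93 ± 0.30 just missed (adjusted p = 0.051). The GOM fit held WG replicate 35, which had COL5A2 at 9.19 TPM beside a set 1 median of 319 TPM. It was not repeated within set 1 without that library. Over all libraries COL5A2 in GOM was -0.58 with replicate 35 (adjusted p = 0.11 in edgeR) and -0.59 without it (adjusted p = 0.020). The 2 WL libraries of set 2 in GOM had COL1A1 at 60.0 and 81.6 TPM, at the lower end of the 68.6 to 841 TPM of 18 WG libraries.

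COL3A1 in ULB set 1 ran from 4129.6 TPM through a median of 6692 to 13105 TPM in 20 WG libraries and from 2348 TPM through a median of 2986 to 5641 TPM in 10 WL libraries, so the groups overlapped while the WL median lay below the lowest WG library. COL5A2 in MAD set 1 ran from 160.0 TPM through a median of 379 to 576 TPM in WG and from 61.7 TPM through a median of 131 to 387 TPM in WL, where again the WL median was below the lowest WG library. The type VI chains had values of -0.11 ± 0.23 to 0.07 ± 0.18 in GOM and -0.05 ± 0.20 to 0.09 ± 0.22 in RAD. COL6A3 in ULB and COL6A1 in MAD were higher in WL by 0.46 ± 0.13 (adjusted p = 0.0085) and 0.38 ± 0.13 (adjusted p = 0.028) in edgeR, under the 1.5-fold limit. COL5A1 had values of -0.22 ± 0.21, -0.17 ± 0.21, 0.08 ± 0.18 and -0.09 ± 0.18 in GOM, MAD, RAD and ULB.

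FN1 passed the test of a WG to WL change that differed among depots over all libraries (adjusted p = 0.021 in edgeR, 6.85% of genes), with values of 0.59 ± 0.38 in GOM and -1.07 ± 0.28 in MAD. In GOM 1 of 3 mesothelial markers tested rose (median 0.82), and their part was not tested. Within set 1 none of the 10 passed (4.5% of genes), and the lowest adjusted p was 0.26, for FN1.

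Between NC and WL the diet groups and the library sets nearly coincide. Over all libraries COL3A1 and COL5A2 were higher in WL in GOM (2 of 10, 15.4% of genes) and COL1A1, COL5A1, COL6A1 and COL6A2 lower (4 of 10, 20.7%), and 4 were lower in MAD (17.8%), 3 in RAD (16.6%) and 8 in ULB (9.37%). COL1A1 was lower in each depot, at -2.03 ± 0.25, -1.77 ± 0.32, -2.08 ± 0.46 and -2.72 ± 0.36 in order of GOM, MAD, RAD and ULB. Within set 1, with 3 NC libraries each, none was called by edgeR in MAD (9.2% of genes in either direction) or RAD (12.1%), with 0 and 2 at an unadjusted p under 0.05, and COL1A1 had values of -0.31 ± 0.40 and -0.04 ± 0.60. In ULB, with 2 NC libraries, COL1A1, COL1A2, COL3A1 and LOX were lower in WL within set 1 (4 of 10, 7.26% of genes), at -1.17 ± 0.30, -1.53 ± 0.24, -1.06 ± 0.22 and -1.24 ± 0.18. In GOM all 9 NC libraries were of set 2 and 8 of 10 WL libraries of set 1. Within set 2 the 2 other WL libraries gave -1.38 ± 0.45 for COL1A1 (adjusted p = 0.061 in edgeR) and 0.85 ± 0.45 for COL3A1 (adjusted p = 0.22), neither of them called. The 3 diet comparisons share their groups.

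Chains of 1 protein were matched to different degrees. The ratio of COL6A1 to COL6A2 TPM ran from 0.556 to 1.24 over the 236 libraries, with a median of 0.894. The ratio of COL1A1 to COL1A2 had a median of 0.172 in set 1 and 1.19 in set 2. For COL5A1 to COL5A2 the median was 0.101 in set 1 and 0.401 in set 2. It was 0.632 in WG ULB of set 2, where COL5A1 (137 to 339 TPM) overlapped COL5A2 (251 to 578 TPM). COL3A1 exceeded COL1A1 in every library, by a median ratio of 25.7 in set 1 and 4.17 in set 2. COL6A3 was above COL6A1 in 83 of 132 libraries of set 1 and 6 of 104 of set 2.

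Among WG pigs of 1 depot and 1 set, most chains varied with COL1A1. Of 36 relations per set (9 genes in 4 depots), 29 in set 1 and 31 in set 2 had an adjusted permutation p below 0.05 for Pearson's r, over 72 relations. The share of all PCGs that varied with COL1A1 in this way was not computed, so these counts have no background. COL1A2 had r of 0.69 to 0.89 in set 1 (Spearman's rho 0.84 to 0.89) and 0.89 to 0.96 in set 2 (rho 0.89 to 0.98). COL5A1 had r of 0.68 to 0.93 (rho 0.79 to 0.91) and 0.79 to 0.91 (rho 0.74 to 0.84), and COL3A1 0.37 to 0.79 (rho 0.53 to 0.78) and 0.73 to 0.94 (rho 0.65 to 0.94). COL6A3 had r of 0.56 to 0.84 and 0.65 to 0.83, and without the 2 libraries farthest from the median of COL1A1 its lowest r was 0.18 in set 1 and 0.62 in set 2. The r of COL5A2 was 0.02 to 0.60 and 0.34 to 0.77, that of LOX 0.14 to 0.59 and 0.15 to 0.66, and that of FN1 0.25 to 0.63 and 0.43 to 0.68. In set 1 the lowest r of COL1A2, COL3A1, COL5A1 and COL5A2 came from GOM, which held replicate 35. COL5A2 had a rho of 0.29 there. No difference between these coefficients was tested.

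**Figure D3:**
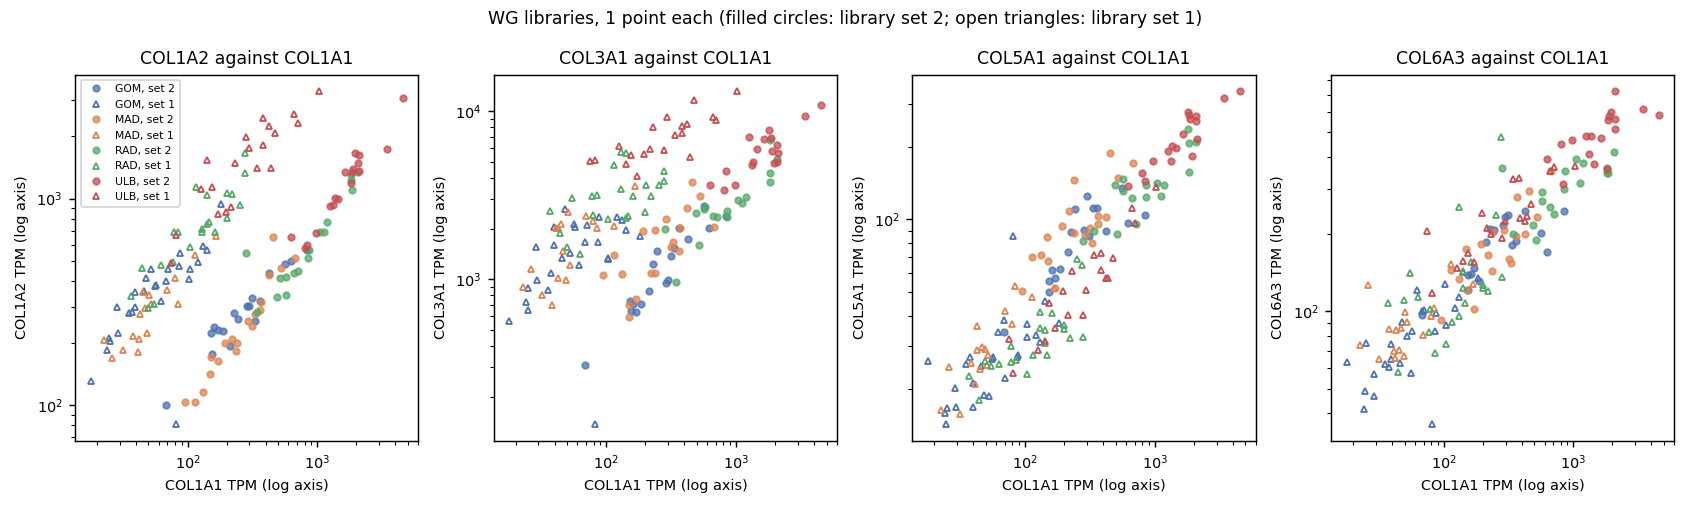
TPM of COL1A2, COL3A1, COL5A1 and COL6A3 against that of COL1A1 (both log axes) in the WG libraries, coloured by depot, with filled circles for library set 2 and open triangles for set 1. The sets form separate bands for COL1A2 and COL3A1, with set 2 at higher COL1A1 for the same level of the other chain.

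Depots of 1 pig could be compared only through the replicate number, which is not stated to mark the animal. Within WG and within a set, libraries of the same number gave 120 relations between depots, over 12 to 21 numbers each. After adjustment 9 passed for Pearson's r and 3 for Spearman's rho (permutation), none of them for COL1A1, COL6A1, COL6A2, LOX or FN1 and 4 of the 9 for COL3A1.

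The PCGs most like COL1A1 were chosen by Pearson's r over all 236 libraries, and the r inside set 1 and inside set 2 is given as a description. They were COL5A1 (0.82 and 0.91), COL6A2 (0.77 and 0.86), COL6A3 (0.80 and 0.93), COL6A1 (0.72 and 0.84) and the gelatinase MMP2 (0.77 and 0.89). For COL6A3 they were MMP2 (0.89 and 0.95), the procollagen C-proteinase enhancer PCOLCE (0.81 and 0.91), COL1A1, SNX9 (0.80 and 0.89) and COL6A2 (0.79 and 0.93). For FN1 they were FMOD, a small proteoglycan that binds collagen fibrils (0.74 and 0.77), PDPN (0.70 and 0.66), the scavenger receptor OLR1 (0.69 and 0.74), NPTXR (0.64 and 0.72) and ZBTB7C (0.64 and 0.73), with no collagen among them. The points share library set, depot and depth.

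Other genes of collagen biology were read from lists, within set 2 for NC to WG and set 1 for WG to WL. Of 14525, 14029, 14038 and 14267 genes tested in GOM, MAD, RAD and ULB, 573, 665, 937 and 283 rose and 1277, 490, 1326 and 674 fell from NC to WG. The numbers from WG to WL were 314, 1407, 350 and 897 that rose and 285, 813, 470 and 936 that fell, of 13629, 13838, 13507 and 13630 tested.

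Of 25 genes of collagen processing and crosslinking, 4 of 22 tested rose from NC to WG in GOM, 5 of 23 in MAD and 6 of 23 in RAD, and 1 fell in RAD and 1 in ULB. The list's median log2 change was 0.13, 0.29, 0.20 and 0.05 in GOM, MAD, RAD and ULB, beside -0.01, -0.02, -0.01 and 0.00 over all genes. LOXL4, a relative of LOX, rose by 1.84 in GOM, 2.37 in MAD and 1.87 in RAD (adjusted p = 0.0012, 0.0013 and 0.0018 in edgeR). LOXL1, which crosslinks elastin, rose by 1.33 in GOM and 1.16 in MAD, and the collagen chaperone FKBP10 by 0.98 in MAD and 0.91 in RAD. PCOLCE2, a procollagen C-proteinase enhancer, fell in ULB (-1.03). Between WG and WL, 5 of 22 fell and 1 rose in MAD, 0 fell in GOM, 1 in RAD and 2 in ULB, where the chaperone SERPINH1 rose (0.64). P4HA3, a prolyl hydroxylase subunit, rose from NC to WG in RAD (1.24) and fell from WG to WL in RAD (-0.96) and ULB (-0.98). In MAD the lysyl oxidase relative LOXL2 fell (-0.77) and PCOLCE rose (0.82). The list's medians from WG to WL were -0.06, -0.13, -0.02 and 0.02, beside 0.01, 0.05, 0.02 and 0.02 over all genes.

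Of 8 other collagens tested (11 listed), 3, 1, 4 and 0 rose from NC to WG in GOM, MAD, RAD and ULB, and none fell. COL16A1 rose in GOM, MAD and RAD by 0.97, 0.68 and 0.73, and COL12A1, which sits on fibril surfaces, by 0.89 in RAD. The type VI chain COL6A5 fell from WG to WL in RAD (-0.90) and COL6A6 rose in ULB (0.87). The list's medians were 0.31, 0.22, 0.58 and 0.09 from NC to WG in GOM, MAD, RAD and ULB, and -0.09, -0.07, -0.23 and -0.16 from WG to WL. Of 17 fibril-binding proteoglycans and glycoproteins, 5 rose from NC to WG in GOM, 3 in MAD and 4 in RAD, with the small proteoglycan BGN at 1.15, 0.88 and 1.08. POSTN, a matrix protein of remodelling tissue, fell in MAD (-2.34) and ULB (-1.35), and DCN in ULB (-0.65). In the WL group, 6 of the 17 fell and 3 rose in MAD, with the fibrillin FBN1 at -1.29, and 4 rose and 1 fell in ULB, with BGN at 1.15. The medians were 0.36, 0.26, 0.39 and 0.02 from NC to WG in the same order of depots, and 0.00, -0.27, 0.13 and 0.23 from WG to WL.

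Of 13 collagen receptors and uptake genes tested (14 listed), 2, 1, 2 and 0 rose from NC to WG in GOM, MAD, RAD and ULB. MRC2, an endocytic collagen receptor, rose by 0.63, 0.68 and 0.68 in GOM, MAD and RAD, and ITGA5, part of the fibronectin receptor, by 0.71 in RAD. DDR1, a collagen-binding tyrosine kinase, rose from WG to WL in GOM (0.83) and RAD (0.77). The medians were 0.34, 0.06, 0.07 and -0.02 from NC to WG and -0.07, -0.20, 0.14 and 0.14 from WG to WL. Of 11 genes of TGF-beta signalling, a pathway known for inducing collagen genes, 3, 4, 5 and 1 rose from NC to WG in these depots, and none fell. The ligand TGFB3 rose by 1.24 in RAD and the ligand TGFB1 by 0.74 in ULB. The inhibitor SMAD7 rose from WG to WL in GOM, MAD, RAD and ULB (0.84, 0.73, 0.88 and 0.73), and TGFB1 rose in MAD (1.12). The medians were 0.36, 0.22, 0.71 and 0.39 from NC to WG and 0.10, 0.06, 0.11 and 0.05 from WG to WL.

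The Hi-C A-B index is positive in compartment A, which holds open chromatin, and negative in compartment B, and it was read in the 20-kb bin of each gene's start. It was above 0 in all 240 libraries for COL1A1, COL5A1, COL6A1 and COL6A3 and below 0 in all 240 for LOX, which was nonetheless expressed in every RNA library. COL6A1 had the highest median, 5.34, above that of 98.0% of bins, followed by COL5A1 with 4.98. COL1A2, COL3A1 and FN1 lay near the boundary, above 0 in 156, 209 and 210 of 240 libraries. For COL1A2 it was above 0 in 10 of 10 WL libraries of GOM and 0 of 12 NC libraries of RAD.

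**Figure D4:**
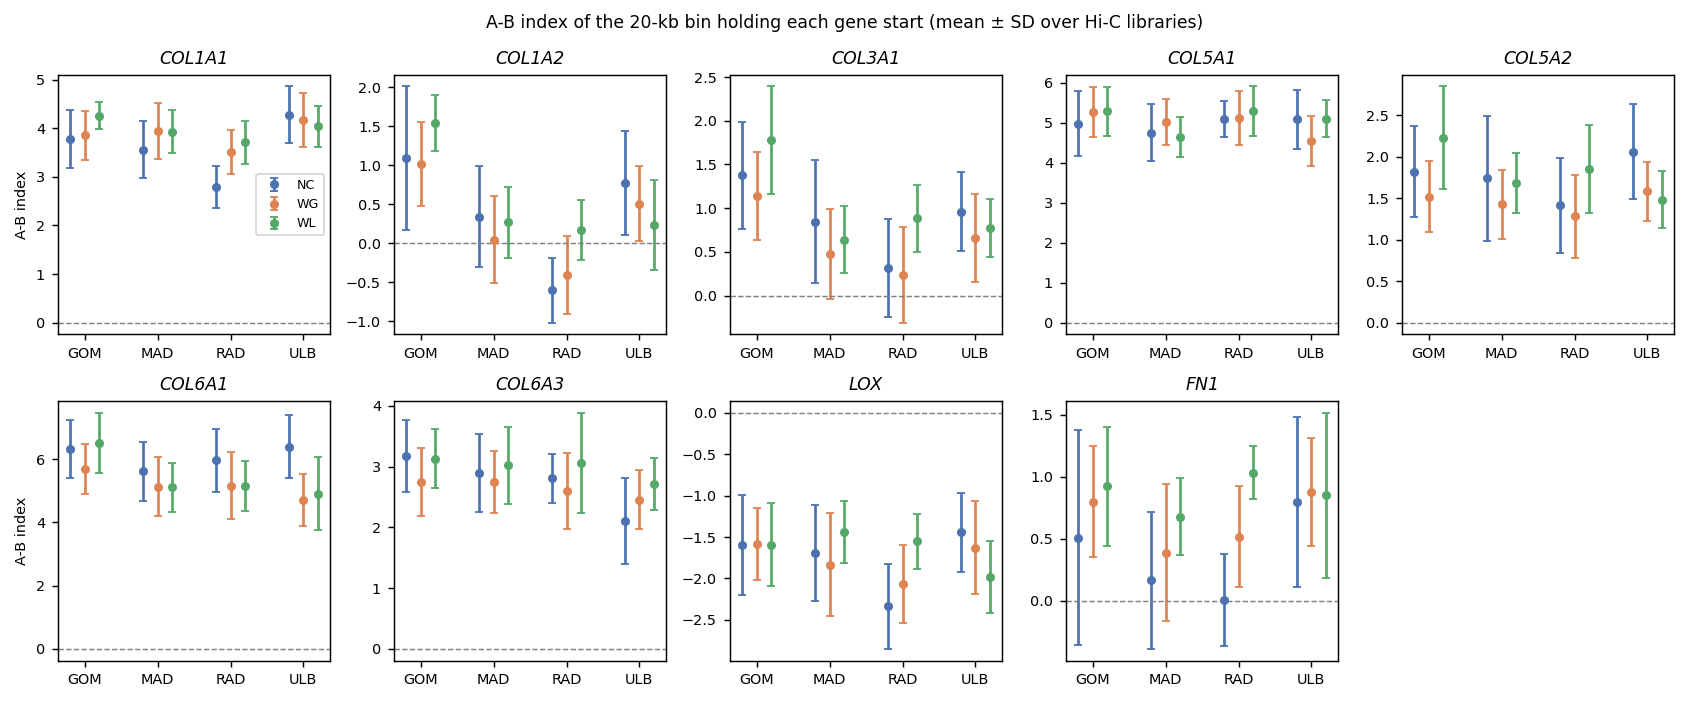
A-B index of the 20-kb bin that holds each gene's start, as mean with SD over the Hi-C libraries of each depot and diet group, with a dashed line at 0 between compartments A and B. COL1A1, COL5A1, COL6A1 and COL6A3 lay above the line and LOX below it in every group, and COL1A2 lay on different sides in different depots.

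COL1A2 in WG had an index of 1.01 ± 0.54 (SD, n = 46) in GOM and 0.51 ± 0.48 (n = 39) in ULB, against 0.04 ± 0.56 (n = 37) for MAD and -0.41 ± 0.50 (n = 40) for RAD, while its transcript was lowest in MAD and GOM. By limma's F test over depots, 5 of 9 start bins passed in NC (47.7% of all bins), 8 in WG (85.7%) and 4 in WL (46.3%), shares near the background. COL1A2 and COL3A1 passed in each diet group.

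From NC to WG the index rose at COL1A1 (0.72 ± 0.15, SE, adjusted p = 0.00035 in limma) and FN1 (0.51 ± 0.13, adjusted p = 0.004) in RAD (2 of 9, 17.4% of bins rose). It fell at COL6A1 in ULB (1 of 9, 1.01% of bins fell), from 6.40 ± 1.00 (SD, n = 5) to 4.72 ± 0.82 (n = 39), a call that was lost without NC replicate 5. None of the 9 was called by limma in GOM (11.6% of bins in either direction, 2 starts at an unadjusted p under 0.05) or MAD (20.5%, 1 start). From WG to WL it rose at COL1A2, COL3A1, COL5A2 and COL6A1 in GOM (4 of 9, 9.87% of bins rose), at COL1A2, COL3A1, COL5A2, LOX and FN1 in RAD (5 of 9, 15.6%) and at COL5A1 in ULB (1 of 9, 11.7%). The COL5A2 bin is that of its curated transcript's start. At the outermost annotated start of COL5A2 no rise was called, with 0.21 ± 0.15 in GOM (adjusted p = 0.35 in limma) and 0.36 ± 0.14 in RAD (adjusted p = 0.055). None of the 9 was called in MAD (4.91% of bins in either direction, 0 starts at an unadjusted p under 0.05). Over the 9 starts the median difference from WG to WL was 0.41, 0.22, 0.52 and -0.02 in order of the depots, beside 0.03, 0.05, 0.16 and -0.02 over all bins. After quantile normalization between libraries 1 start was called in GOM (COL5A2) and 0 in RAD and ULB, so all but 1 of these calls were lost under that scaling. In RAD the index of COL3A1 was 0.24 ± 0.55 (n = 40) in WG and 0.89 ± 0.39 (n = 10) in WL, and that of COL1A2 -0.41 ± 0.50 and 0.17 ± 0.39, while both transcripts fell there.

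H3K27ac, a mark of active enhancers and promoters, was given as stitched regions ranked by signal within each table. A region lay within 10 kb of COL5A1, COL5A2, COL6A1 and COL6A3 in all 18 tables, of COL1A1, COL1A2 and COL3A1 in 17, of LOX in 12 and of FN1 in 11. Of all genes, 65.2 to 85.6% had one in a given table. A region called a super-enhancer, found near 5.72 to 27.8% of all genes, was near COL5A1 in 15 tables, COL6A3 in 14, COL1A1 in 12, COL3A1 and COL5A2 in 7 each, COL1A2 and COL6A1 in 5 each, and LOX and FN1 in 0. COL5A1 (Sscrofa11.1 chr1:273934219-274083264, plus strand) had a region among the 10 strongest in 11 tables. The best was ranked 2 of 22471 in a WG subgroup of GOM, at chr1:273647001-274016399, and reached far upstream of the gene. COL1A1 (chr12:26379087-26397180, minus strand) was covered by a region at chr12:26318201-26424999 ranked 45 of 19395 in a WG subgroup of ULB. COL3A1 (chr15:93556914-93595678, plus strand) and COL5A2 (chr15:93611856-93981131, minus strand, with the start of its curated transcript at chr15:93758690) are neighbours, and their best region was the same one, ranked 239 in NC MAD, where a single library was read.

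FN1 had a region in all 5 GOM tables, at ranks of 1658 to 4895, and in 6 of the 13 other tables, at ranks of 4257 to 22093. In 4 of the GOM tables and in no other table the region covered its start (chr15:117737145). LOX had a region in each NC and WL table and in 4 of 10 WG tables, with a best rank of 5263. With 1 table per group or subgroup these differences cannot be tested.

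**Figure D5:**
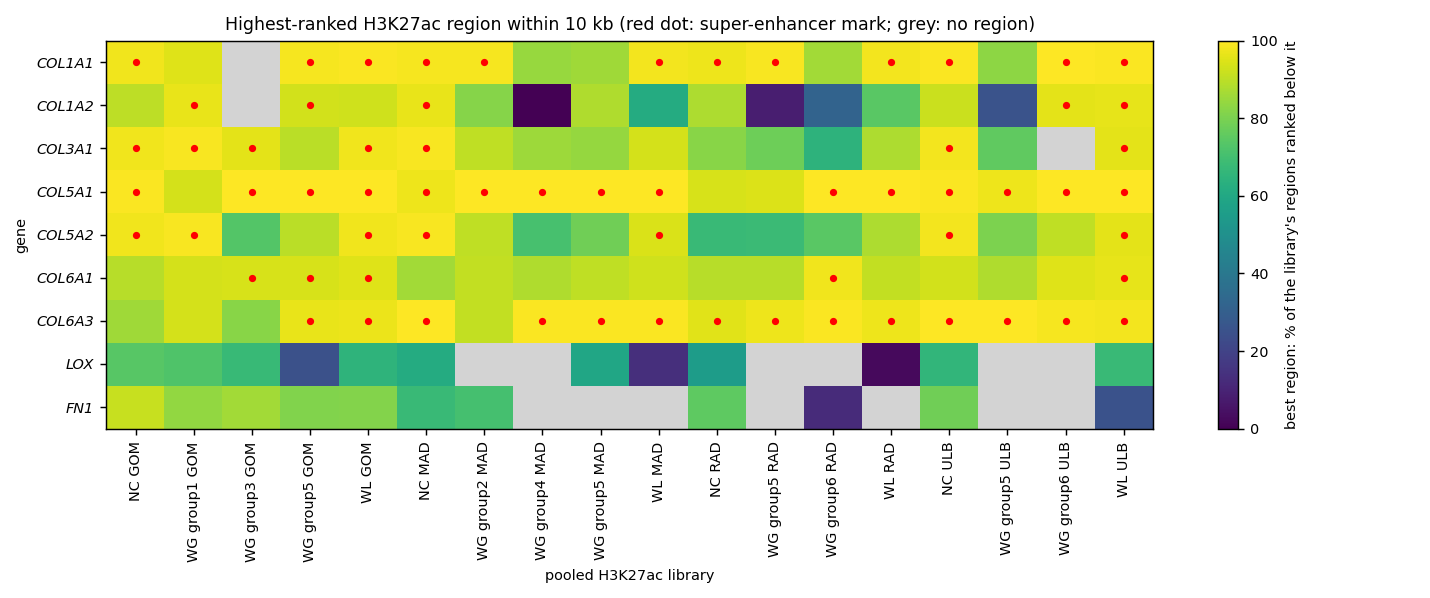
Share of a table's H3K27ac regions that rank below the best region within 10 kb of each gene (colour, in percent), for the 18 tables by depot. Red dots are super-enhancers and grey cells have no region. COL5A1 and COL6A3 carried the dot in most tables, and LOX and FN1 in none.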

How the data were processed

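RNA-seq (236 libraries), Hi-C (240) and H3K27ac (18 tables) were used. The authors quantified rRNA-depleted, stranded libraries with kallisto 0.43.0 and tximport 1.6.0 against Sscrofa11.1 and deposited estimated counts, 17.8% of them 0, and TPM per PCG. The deposited A-B index, a score per 20-kb bin, came from Juicer 1.5.6 and BNBC 1.0.0. The deposited H3K27ac signal came from BWA 0.7.15, SAMtools 1.3.1, SICER 0.1.1 and ROSE 0.1, with stitching within 12.5 kb and exclusion of 2 kb around starts. In each gene-level and index table, 9 columns that matched no labelled sample were not used.

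Rounded counts were tested with edgeR 4.0.16 (quasi-likelihood, TMM) in R 4.3.3, over PCGs that exceeded 0.5 TPM in 80% or more of a group's libraries, with Benjamini-Hochberg adjustment over all genes. Depots and interactions used F tests. The index was tested with limma 3.58.1 over 113298 bins. H3K27ac regions were taken within 10 kb of a gene. Correlations used log2(TPM + 1) and 2-sided permutation tests in SciPy 1.17.1, and were given within library sets because these form separate clusters. DESeq2 1.42.0, other scalings, filters, terms, a replicate block and left-out libraries were alternatives. Scripts were tested on simulated data. No libraries were duplicates by a chi-square comparison of their counts. The 10 genes and the lists were chosen with earlier results of these data known, and the library sets after seeing the data. Named list genes were at most 3 called per comparison with the largest changes, and, for COL1A1, COL6A3 and FN1, the 5 PCGs of highest r. Labels do not say that replicates came from separate pigs in every depot, so p-values measure the spread between libraries. Intervals for depth were not computed for estimated counts. A list gene and most promoter sequences are not reported here.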

Additional observations from a re-analysis of the deposited data

Results flagged for a closer look

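A library lay farther from its group than Dixon's 95% limit in 4 of 60 tests of TPM (1 in 20 would be 3.0) and 4 of 54 tests of the A-B index (1 in 20 would be 2.7). FN1 was 4326 TPM in replicate 5 of NC GOM, where the next library had 1832 TPM. COL1A2 was 392 TPM in replicate 10 of WL MAD, next to 221 TPM. COL6A1 was 225 TPM in replicate 10 of WL RAD, next to 132 TPM. FN1 was 465 TPM in replicate 6 of WL RAD, next to 269 TPM. The index at COL5A1 was 3.81 in replicate 9 of NC ULB, where the nearest library had 5.28. At COL3A1 it was 3.39 in replicate 9 of WL GOM, next to 1.96. In replicate 3 of WL MAD it was 2.80 at COL1A1, next to 3.65, and -0.568 at LOX, next to -1.22.

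The change between diet groups differed among depots by edgeR's interaction test over all libraries for 3 genes from NC to WG, COL1A2 (adjusted p = 0.0181), LOX (adjusted p = 0.00327) and FN1 (adjusted p = 0.002). From WG to WL it differed for FN1 (adjusted p = 0.0206). Within library set 2, FN1 and COL6A3 passed from NC to WG, and within set 1 none of the 10 genes passed from WG to WL.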

How the results depend on the processing

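Of 188 alternative values of counts of called genes or bins, 139 stayed within 1.5 times the value over all libraries, and the others follow. The term for 2 library sets, the fits within a set and the fit without WG GOM replicate 35 were chosen after seeing the data, and the cause of the changes was not tested. With the set term the number of the 10 genes called from NC to WG went from 2 to 4 in MAD, from 3 to 8 in RAD and from 0 to 1 in ULB. Between WG and WL it went from 1 to 3 in GOM, from 6 to 3 in MAD and from 7 to 3 in RAD. From NC to WL it went from 6 to 1 in GOM, from 4 to 0 in MAD, from 3 to 0 in RAD and from 8 to 4 in ULB. The NC to WG interaction went from 3 to 5. Over all genes the set term called 1386 of 13845, 2104 of 13571 and 697 of 13600 in these NC to WG fits. In the WG to WL fits it called 873 of 13906, 2270 of 13918 and 857 of 13548, in the order given. The NC to WL fits had 2189 of 14440, 1560 of 14170, 1537 of 13782 and 1347 of 13878, and the interaction 1139 of 14770. Within set 1 the counts were 0 (MAD), 0 (RAD) and 1 (ULB) from NC to WG, 0 (GOM), 3 (MAD) and 3 (RAD) from WG to WL, 0 (MAD), 0 (RAD) and 4 (ULB) from NC to WL, and 0 for the WG to WL interaction, with fewer libraries in each fit. Within set 2 they were 5 (MAD) and 8 (RAD) from NC to WG and 0 in GOM from NC to WL.

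With a term for the share of TPM on PCGs, counts were 1 (GOM, NC to WG), 0 (GOM, WG to WL) and 0 (WG to WL interaction). Over all genes that fit called 4945 of 14251, 639 of 13906 and 742 of 14445. With no filter on low genes, 4 of 7 fell in RAD from WG to WL, with 949 of 20630 genes called in either direction. DESeq2 and RLE scaling kept every count within 1.5 times. Without 1 NC ULB replicate, counts ranged from 1 to 3 for the NC to WG interaction, from 7 to 8 from NC to WL in ULB and, for start bins, from 0 to 2 from NC to WG in ULB and from 4 to 5 among depots in NC. Without WG GOM replicate 35, 2 genes fell in GOM from WG to WL and the NC to WG interaction had 4.

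Of log2 fold changes called in at least 1 fit, these turned direction. Among those not called, others turned within a set too. From NC to WG in GOM, 4 of 10 genes were higher in WG over all libraries and 9 of 10 within set 2, and from WG to WL in ULB 0 and, within set 1, 4 were higher in WL. COL1A1 from NC to WG in GOM was -0.09 over all libraries and 0.81 within set 2. With the set term and within the set, COL5A1 from NC to WL in GOM was 0.022 and 0.044, COL6A2 from WG to WL in MAD 0.18 and 0.19, FN1 from NC to WL in MAD 0.19 and 0.17, and COL6A1 there 0.29 and 0.27. Likewise COL5A1 in RAD was 0.085 and 0.080 from WG to WL and 0.16 and 0.16 from NC to WL, and COL6A1 in RAD 0.41 and 0.41 from NC to WL.

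For the 9 start bins, quantile normalization gave 2 (GOM) and 3 (MAD) from NC to WG, and 1 (GOM), 0 (RAD) and 0 (ULB) from WG to WL. Of all 113298 bins it called 7787, 16587, 9519, 16411 and 17141 in the same order. Requiring an index difference above 0.75 gave 0 in RAD from NC to WG, 1 (GOM), 0 (RAD) and 0 (ULB) from WG to WL, and 3 among depots in WG. The mean of all bins over a gene gave 2 (GOM), 3 (MAD) and 4 (ULB) from NC to WG, 1 (MAD) and 3 (ULB) from WG to WL, and 8 among depots in WL. Of 18722 genes with such a mean, 5336, 8822, 2392, 1660, 5334 and 9065 were called in the same order.

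Deviations of log2(TPM + 1) were compared between libraries of the same replicate number in different depots. They correlated above 0.1 in 31 of 44 NC, 202 of 207 WG and 48 of 60 WL pairs. For WG the median correlation was 0.621 with equal numbers, beside -0.0902 for other pairs. NC had 0.196 beside -0.0271, and WL had 0.252 beside -0.0441. The labels do not state that the number marks the animal, so the main tests did not pair the samples by it. In 124 of 207 cases in WG the best match was the library's own number, a hint from the data only. With the number as a replicate block, 10, 10 and 10 genes were called among depots in NC, WG and WL. Over all genes 5205 of 14556, 3468 of 13906 and 3913 of 14350 were called there. For the NC to WG interaction 4 of the 10 were called, against 4926 of 14770 genes (971 without the block). For the WG to WL interaction 3 were called, against 2451 of 14445 genes (990 without the block). Among depots 4, 9 and 4 start bins were called, against 52591, 98082 and 58111 of 113298 bins. Diet comparisons could not be blocked, since the diet groups held different pigs.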
